A study of Mus musculus with 3 samples.

Results

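These are cells rich in the contractile genes Acta2 and Tagln that carry little of the pericyte gene Rgs5 and of the smooth muscle actin gene Actg2, from the hearts of newborn mice. They were chosen by counts of unique molecular identifiers (UMIs, 1 per RNA molecule read). A barcode was taken if it had at least 500 genes, at least 20 UMIs of Acta2, Tagln and Myh11 together, under 3 of Actg2, under 5 of Rgs5 and under 4 of the endothelial genes Pecam1 and Cdh5. The cardiomyocyte genes Tnnt2, Myh6, Actc1, Tnni3 and Myl7 also had to make up under 2% of its UMIs. The rule took 172 cells of the SAN-GFP- library and 62 of the RA library, 234 of the 4333 barcodes with at least 500 genes in these libraries and of 8072 barcodes in the whole series. That is 5.67% (95% interval 4.87% to 6.55%) of the SAN-GFP- barcodes and 4.78% (3.68% to 6.09%) of the RA barcodes with that many genes. Because the limits use measured values, the levels of the genes in the rule describe the choice and are no finding.

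All mice were of the ICR strain, had the genotype HCN4H2BGFP, which marks nuclei with green fluorescent protein where the pacemaker channel gene Hcn4 is active, and were taken at postnatal day 2. SAN-GFP- cells were sorted as negative for the reporter from the sinoatrial node region, and RA cells were not sorted. That library is titled RA, but its tissue label names the node region, a disagreement that could not be settled. SAN-GFP+ cells, sorted as positive, make up the remaining library and are not compared here. Each group was 1 10x Genomics library, how many animals it came from is not stated in the labels, and no difference below has a replicate error or a test.

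Mural cells wrap blood vessels. Smooth muscle cells of arteries and veins contract through alpha smooth muscle actin (Acta2) and smooth muscle myosin heavy chain (Myh11), with transgelin (Tagln), calponin (Cnn1) and myosin light chain (Myl9) on the same filaments, while pericytes of small vessels carry Rgs5, Kcnj8 and Notch3. Acta2 and Tagln are also switched on in fibroblasts that build and remodel matrix, so they do not mark muscle alone, whereas Myh11, Cnn1 and Lmod1 are held to be closer to mature smooth muscle.

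Levels are given as CPM, a gene's UMIs per 1000000 UMIs of all genes, summed over the cells of a group in a library, with 95% exact Poisson intervals in brackets where shown. Ratios are log2 values with 0.5 UMIs added to each sum and exact conditional binomial intervals, and a gene counts as higher or lower from a 2-fold ratio on. Intervals cover counting error only. The 3 comparison groups obeyed the same endothelial and cardiomyocyte limits. Rgs5-positive cells had at least 5 Rgs5 and under 3 Actg2 UMIs, with any number of contractile UMIs (418 cells in SAN-GFP-, 257 in RA). Actg2-positive cells had at least 3 Actg2 and 20 contractile UMIs (484 and 90 cells in the same libraries). Fibroblast-gene cells had at least 20 UMIs of Col1a1, Dcn and Lum, under 20 contractile UMIs, under 3 of Actg2 and under 5 of Rgs5. They numbered 1237 in SAN-GFP- and 303 in RA.

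The Acta2/Tagln-rich cells had a median of 14450 UMIs (2565 to 54285) in SAN-GFP- and 18893 (7398 to 41781) in RA. Fibroblast-gene cells were shallower, with medians of 10880 and 15308 UMIs in the same libraries. The limit of 20 UMIs is not scaled to depth, and the part of depth in the choice was not tested. SAN-GFP- and RA shared 9 barcodes, and 2 of the chosen cells were among them. No doublet caller was run.

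Some of their genes went with the label for these cells, contractile mural cells, and others did not. The 10 vascular smooth muscle markers summed to 1764 CPM in SAN-GFP- and 1142 CPM in RA, against 577 and 462 CPM in fibroblast-gene cells and 2020 and 1517 CPM in Rgs5-positive cells of the same libraries. Fibroblast-gene cells were held under 20 contractile UMIs, so their lower sums in part describe the choice. Most of the 1764 and 1142 CPM came from Myl9 (961 and 483 CPM) and Tpm2 (563 and 561 CPM). In fibroblast-gene cells of SAN-GFP- and RA, Myl9 was read in 84.5% and 76.6%, and Tpm2 in 78.3% and 87.8%. Myh11 had 0 UMIs in 129 of the 172 SAN-GFP- cells (75%) and in 60 of the 62 RA cells (96.8%), so nearly all of the contractile UMIs that met the rule came from Acta2 and Tagln. Myh11 stood at 38.6 CPM (31.3 to 47.1) in SAN-GFP- and 1.66 CPM (0.201 to 6.01) in RA. Cnn1, which binds actin in differentiated smooth muscle, stood at 70.9 CPM in SAN-GFP- and 3.33 CPM in RA. For Lmod1, a smooth muscle actin nucleator, and Myocd, the coactivator that drives the smooth muscle programme, no UMI was read in the RA cells, which allows up to 3.07 CPM of either (upper 95% Poisson bound). In SAN-GFP- they stood at 26.3 and 1.99 CPM.

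Genes of fibroblasts were also present. All 12 fibroblast markers had UMIs in both libraries, and they summed to 24307 CPM in SAN-GFP- cells and 27262 CPM in RA cells. The sums in fibroblast-gene cells were higher, at 41442 and 41789 CPM in SAN-GFP- and RA. Those cells were chosen by Col1a1, Dcn and Lum of the same list, so their higher sums in part describe the choice. The sums in Actg2-positive cells were lower than in the Acta2/Tagln-rich cells, at 18507 and 15884 CPM. Rgs5-positive cells held nearly the same sum in SAN-GFP-, at 23931 CPM, and a lower one in RA, at 19673 CPM, so fibroblast RNA did not set the Acta2/Tagln-rich cells of SAN-GFP- apart from them. Per cell the summed markers ran from 1584 to 78999 CPM (median 22092) in SAN-GFP- and from 12706 to 50209 CPM (median 26196) in RA, so no RA cell was near 0. The proteoglycan gene Dcn had a UMI in 95.3% of the SAN-GFP- cells and 100% of the RA cells, against 81.9% and 77.5% of the macrophage-gene cells of SAN-GFP- and RA, which have at least 10 UMIs of C1qa, C1qb and C1qc and should lack it. After each cell was thinned to 2500 UMIs the share for Dcn was 89.5% (84.0% to 93.7%) and 100% (94.2% to 100%), against 38.1% and 44.1% of the macrophage-gene cells, whose median depths were 9004 and 9827.5 UMIs. It was 85.2% and 93.4% of the Rgs5-positive cells and 83.9% and 81.1% of the Actg2-positive cells in SAN-GFP- and RA.

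Counted cell by cell, 82 of 172 SAN-GFP- and 55 of 62 RA cells had a UMI of Pdgfra, the PDGF receptor of fibroblasts, or of Tcf21, a transcription factor of cardiac fibroblasts, and none of Myh11 or Cnn1. The reverse, Myh11 or Cnn1 without Pdgfra or Tcf21, was found in 30 SAN-GFP- cells (17.4%, 95% Clopper-Pearson interval 12.1% to 23.95%) and in 0 RA cells (0% to 5.78%). These shares count cells with a UMI and not cells that express a gene. Both kinds of gene were read in 52 SAN-GFP- and 6 RA cells, and neither kind in 8 and 1. Since the smooth muscle genes split in this way, the cells are called by their rule, Acta2/Tagln-rich cells. The name gives the rule and no rank among the groups. Acta2, Tagln and Myh11 summed to 3431 CPM in these cells of SAN-GFP- and 2384 CPM in RA. The sums were 3478 and 3440.5 CPM in Rgs5-positive, 10603 and 8167 CPM in Actg2-positive and 371 and 280 CPM in fibroblast-gene cells. Reads of Tcf21 and Myh11 were not particular to the Acta2/Tagln-rich cells. Tcf21 was read in 53.8% of Rgs5-positive cells in SAN-GFP- and 93.8% in RA, against 70.3% and 96.8% of the Acta2/Tagln-rich cells. Myh11 was read in 23.7% and 6.23%, against 25% and 3.23%. In Actg2-positive cells the shares were 31.4% and 80% for Tcf21, and 68.4% and 26.7% for Myh11. The joint counts were not made in those groups.

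**Figure D1:**
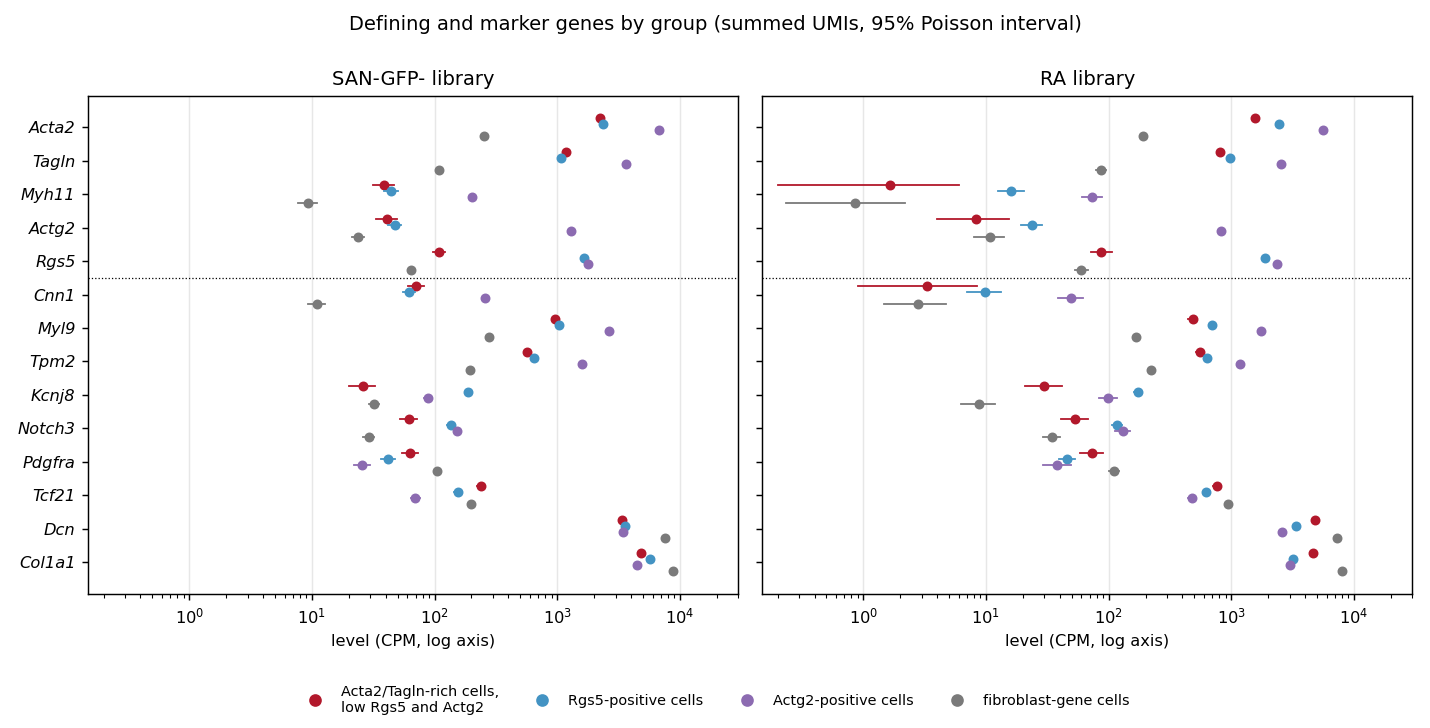
Levels of the genes of the rule (above the dotted line) and of other marker genes, in CPM on a log axis, for 4 groups of cells in each library, with points for summed UMIs and bars for 95% Poisson intervals. Myh11 of the Acta2/Tagln-rich cells stands at 38.6 CPM in SAN-GFP- and 1.66 CPM in RA, while Dcn and Col1a1 are far above it in every group.

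Markers of several other cell types had low sums. The 8 endothelial markers summed to 64.5 CPM in SAN-GFP- and 105 CPM in RA cells, the 8 macrophage markers to 44.2 and 106 CPM and the 6 epicardial markers to 32.6 and 5.82 CPM in the same libraries. The 8 cardiomyocyte markers summed to 258 CPM in SAN-GFP- and 583 CPM in RA, close to their sums in fibroblast-gene cells of the same libraries (272 and 634 CPM). The endothelial list includes Pecam1 and Cdh5, and the cardiomyocyte list Tnnt2, Myh6, Actc1, Tnni3 and Myl7. These genes were limited in all groups, so the endothelial and cardiomyocyte sums in part describe the choice. The 12 pericyte markers summed to 617 CPM in SAN-GFP- and 694.5 CPM in RA, against 1981 and 2219 CPM in Rgs5-positive cells. The 8 valve interstitial markers summed to 629 CPM in SAN-GFP- and 455 CPM in RA, and to 617 and 299 CPM in fibroblast-gene cells. Red cell markers, which are haemoglobin genes, were high, at 6315 CPM in SAN-GFP- and 4190 CPM in RA, with 336665 CPM in 1 SAN-GFP- cell. The 6 neuron markers summed to 257 CPM in SAN-GFP- and 8.32 CPM in RA, with 10979 CPM in the highest SAN-GFP- cell. Of the 10 genes listed for lung or airway mesenchyme none reached the level needed in any comparison. Transcripts of the X-inactivation gene Xist without a Y-linked gene were read in 40 SAN-GFP- and 22 RA cells, and Y-linked genes without Xist in 95 and 25, so RNA of both sexes was read in both libraries.

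Cells just inside and just outside the limit of 20 contractile UMIs had similar levels of fibroblast genes. The 39 SAN-GFP- cells with 20 to 24 such UMIs held 4095 CPM of Dcn, 6433 of Col1a1 and 534 of Myl9, and the 41 cells with 15 to 19 held 4066, 6130 and 463 CPM of the same genes. Their Eln stood at 10659 CPM inside and 7472 CPM outside, and their Cnn1 at 45.1 and 21.8 CPM. In RA the 9 cells just inside held 4884 CPM of Dcn and the 12 just outside 5666 CPM, and Myh11 was at 0 UMIs on both sides.

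Within SAN-GFP-, levels of most contractile genes followed Myh11, a gene of the rule, and are a description. Of the 22 genes of the contractile apparatus list, 15 were higher with 3 or more Myh11 UMIs than with 0, with intervals that did not overlap, and 1 was lower. The share over all genes was not counted, so whether this list stands out from other genes is not known. Of the 172 cells, 29 had 1 or 2 Myh11 UMIs and 14 had 3 or more, with 7 as the highest count. RA had 2 cells with 1 UMI each and none above. From the cells with 0 to those with 1 to 2 and 3 or more Myh11 UMIs, Acta2 stood at 1730, 2677 and 9047 CPM. Tagln stood at 925, 1378 and 4851 CPM, and Myl9, the regulatory light chain of smooth muscle myosin, at 709, 1136 and 4713 CPM. These 3 genes were highest in the 14 cells, whose median depth was the lowest of the bands at 7302 UMIs, against 15240 UMIs with 0 Myh11 UMIs. The limit of 20 contractile UMIs asks for a higher CPM in a shallower cell, and its part here was not tested. Cnn1 stood at 28.9, 143 and 551 CPM and Lmod1 at 11.5, 61.2 and 164 CPM over the same bands.

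Of the 12 fibroblast markers, 9 were lower with 3 or more Myh11 UMIs than with 0, with intervals that did not overlap, and Gsn and Mfap5 were higher. No share over all genes was counted here either. Dcn stood at 3588, 3233 and 327 CPM, the matricellular gene Postn, which is not on that list, at 4090, 2511 and 586 CPM and Tcf21 at 271, 138 and 25.8 CPM. In the 14 cells with 3 or more Myh11 UMIs the homeobox gene Meox1 had 0 UMIs, which allows up to 31.8 CPM. Eln, for elastin, stood at 9232, 15938 and 40324 CPM, the chemokine gene Cxcl12 at 57.4, 332 and 646 CPM, and Sost, for the secreted Wnt inhibitor sclerostin, at 7.49, 115 and 396 CPM. Kcnj8, the channel gene of pericytes, was at 25.4, 28.1 and 25.8 CPM and did not differ beyond its counting intervals. Among the contractile genes, Pdlim3 went the other way, at 558 CPM with 0 Myh11 UMIs and 284 CPM with 3 or more.

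**Figure D2:**
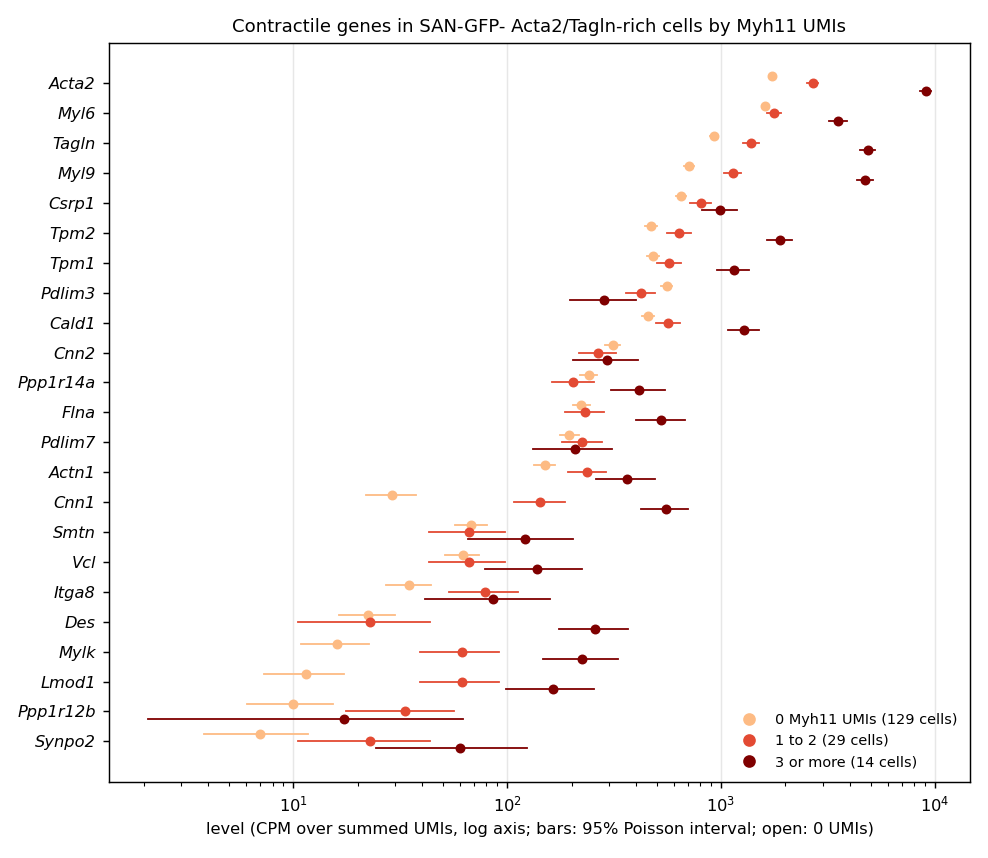
Levels of Acta2, Tagln and the contractile apparatus list in SAN-GFP- Acta2/Tagln-rich cells, in CPM on a log axis, split by the number of Myh11 UMIs in the cell, with bars for 95% Poisson intervals. The 14 cells with 3 or more Myh11 UMIs are the highest for Acta2, Myl9 and Cnn1, and the lowest for Pdlim3.

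The comparison of SAN-GFP- with RA cells asked how the Acta2/Tagln-rich cells of the sorted node library differ from those of the unsorted library. SAN-GFP- cells held far more elastin RNA, more of some other elastic fibre genes, and less of Tcf21 and of some cell cycle genes. The collagen and contractile genes that reached the level needed were mostly alike, but Cnn1, Lmod1 and Myh11 are not among them. Of 2645 genes measured, 36 were at least 2-fold higher (1.36%) and 30 at least 2-fold lower (1.13%). The median gene had a log2 ratio of -0.12, and with ratios set against that median the counts were 48 higher and 18 lower. Here the measured genes were those with a mean of at least 50 CPM over both groups.

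Eln, the core protein of elastic fibres, stood at 11715 CPM (11582 to 11850) in SAN-GFP- and 1414 CPM (1348 to 1483) in RA, an 8.28-fold difference (log2 ratio 3.05, interval 2.98 to 3.12). Per cell, Eln made up 0.0202% to 13.8% of the UMIs in SAN-GFP- (median 0.628%) and 0.00391% to 1.35% in RA (median 0.0494%). The ranges overlapped, but 73 SAN-GFP- cells had at least 1% of their UMIs in Eln, against 2 RA cells. The same direction held outside these cells, so it was not particular to them. At least 1% Eln was found in 67.6% of Actg2-positive cells in SAN-GFP- and 2.22% in RA. The shares were 34.9% and 1.17% of Rgs5-positive cells, against 42.4% and 3.23% of the Acta2/Tagln-rich cells. Eln stood at 5529 CPM in SAN-GFP- and 1461 CPM in RA fibroblast-gene cells, and at 1029 and 81.4 CPM in macrophage-gene cells of the same libraries, whose Eln can be free RNA. The part of free RNA in the difference was not tested.

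**Figure D3:**
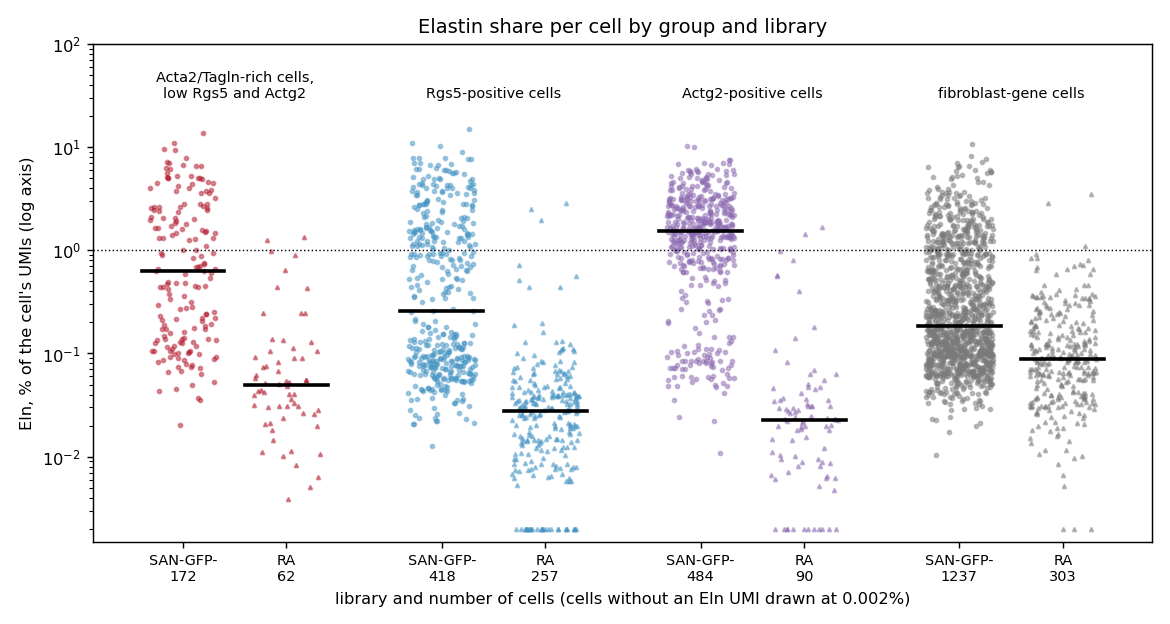
Share of each cell's UMIs that are Eln, in percent on a log axis, by group and library, with 1 point per cell, black lines for medians and a dotted line at 1%. In every group the SAN-GFP- cells reach above the RA cells, and 73 of 172 Acta2/Tagln-rich SAN-GFP- cells lie above the dotted line, against 2 of 62 in RA.

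Of the 11 elastic fibre genes measured, 3 were higher in SAN-GFP- (Eln, Fbln5 and Lox), 0 were lower, and the list's median log2 ratio was 0.47 against -0.12 over all genes. Fbln5, which helps lay elastin onto microfibrils, stood at 518 CPM (490 to 547) in SAN-GFP- and 135 CPM (115 to 157) in RA. Lox, the crosslinking enzyme, stood at 209 CPM in SAN-GFP- and 92.3 CPM in RA (log2 ratio 1.17, 0.88 to 1.48). The microfibril gene Fbn1 was closer, at 444 and 355 CPM in the same libraries. Without the cells at 1% Eln or more, the ratio of Eln was 1.40 and that of Fbln5 0.37 on the log2 scale, and Fbln5 was then below 2-fold.

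Other genes higher in SAN-GFP- included secreted and surface proteins. Cxcl12, a chemokine, stood at 127 CPM in SAN-GFP- and 13.3 CPM in RA, and Ace, for angiotensin-converting enzyme, at 87.6 and 18.3 CPM. Osr1, a zinc finger factor of embryonic mesenchyme, stood at 185 CPM in SAN-GFP- and 33.3 CPM in RA, and its log2 ratio of 2.46 was 0.71 without the cells at 1% Eln or more. Cav1 (log2 ratio 2.37), Tmem158 (2.49), Clec3b (1.80) and Nbl1 (1.80) were also higher, but Clec3b was at 0.95 with at least 30 contractile UMIs. Npy, a neuropeptide gene, had the highest ratio at 211 against 2.50 CPM, but 95.9% of its UMIs came from the single cell of 54285 UMIs, and its log2 ratio was 1.65 without that cell and 6.18 with it.

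**Figure D4:**
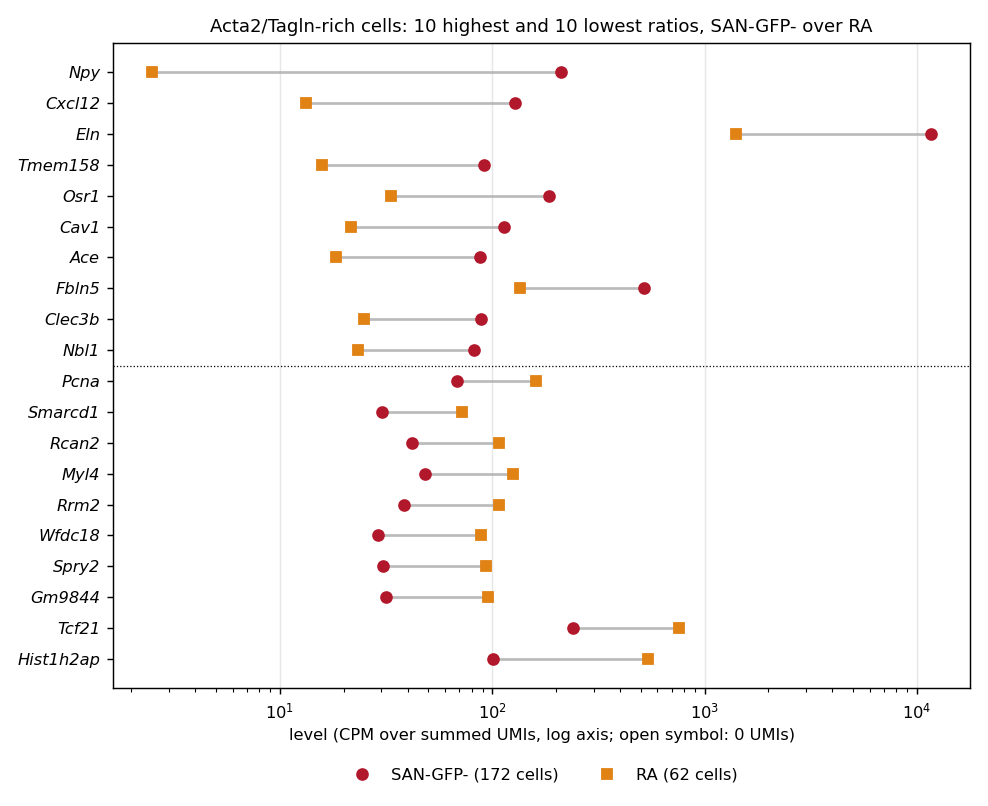
Levels in CPM on a log axis of the 10 genes with the highest and the 10 with the lowest ratio of SAN-GFP- (circles) to RA (squares) Acta2/Tagln-rich cells. Eln lies at 11715 CPM in SAN-GFP- and 1414 CPM in RA, and Tcf21 at 239 and 760 CPM.

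Lower genes included Tcf21 and cell cycle genes. Of the 12 fibroblast markers Tcf21 alone was lower and 0 were higher, with a list median of -0.07. Tcf21 stood at 239 CPM (221 to 259) in SAN-GFP- and 760 CPM (712 to 811) in RA, and it was read in 70.3% and 96.8% of the cells. Fibroblast-gene cells of the same libraries held 199 and 936 CPM of Tcf21. Hey1, a target of Notch signalling, stood at 51.0 CPM in SAN-GFP- and 118 CPM in RA. Of 9 cell cycle genes measured, 4 were lower (Mcm6, Pcna, Rrm2 and the histone gene Hist1h2ap) and 0 higher, with a list median of -0.96. Mcm6, at -1.11 on the log2 scale, falls below 2-fold once ratios are set against the median gene. Without the deepest 5% of cells Rrm2 (-0.90) and Pcna (-0.92) were below 2-fold too, and Hist1h2ap was at -1.79. Hist1h2ap stood at 101 CPM in SAN-GFP- and 541 CPM in RA and was read in 14.0% and 22.6% of the cells, with 25.5% of its RA UMIs in 1 cell. Pcna, a DNA replication clamp, stood at 68.1 CPM in SAN-GFP- and 161 CPM in RA. Myl4, an atrial light chain, stood at 48.2 and 126 CPM, beside the lower sum of cardiomyocyte markers in SAN-GFP- given above, whose part in it was not tested.

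Genes of dissociation stress differed too, with 3 of 11 immediate early and heat shock genes higher in SAN-GFP- and 0 lower. Dnajb1, a heat shock cochaperone, stood at 230 CPM in SAN-GFP- and 72.4 CPM in RA, Hspa1a at 1534 and 727 CPM, and Atf3 at 142 and 60.7 CPM. Sorting and library cannot be told apart here. None of the 14 contractile apparatus genes measured differed 2-fold (list median 0.06). The list has 22 genes, and Cnn1 and Lmod1, given above at higher levels in SAN-GFP- than in RA, were below the level needed. Myh11, also higher in SAN-GFP-, was left out as a gene of the rule. Tpm2, a tropomyosin, stood at 563 CPM in SAN-GFP- and 561 CPM in RA, and Myl9 at 961 and 483 CPM, with a log2 ratio of 0.99 that passes 2-fold once set against the median gene. None of the 17 interstitial matrix genes did either, with Col1a1 at 4835 CPM in SAN-GFP- and 4675 CPM in RA and Col3a1 at 6826 and 7694 CPM. Of 8 TGF-beta and injury response genes, Ctgf was higher (97.5 CPM in SAN-GFP- and 45.7 CPM in RA) and the inhibitor gene Smad6 lower (46.2 and 103 CPM).

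The spread of Eln within SAN-GFP- led to a split of the 172 cells at 1% of UMIs, chosen after the values were seen. The 73 Eln-rich cells held more of some contractile and elastic fibre genes, and the 99 Eln-poor cells more of Tcf21 and of the pericyte marker Ndufa4l2. Of 2586 genes measured, 68 were at least 2-fold higher (2.63%) and 51 lower (1.97%) in Eln-rich cells, whose median depth was 10977 UMIs against 15889 UMIs in Eln-poor cells. Sost stood at 121 CPM (99.1 to 147) in Eln-rich and 1.80 CPM (0.372 to 5.27) in Eln-poor cells, and was read in 31.5% and 3.03% of them. Sost was also at 0 UMIs in all 62 RA cells, which allows up to 3.07 CPM. Cnn1 stood at 172 CPM in Eln-rich and 19.2 CPM in Eln-poor cells (log2 ratio 3.14, 2.60 to 3.76). Of 16 contractile apparatus genes 3 were higher (Cnn1, Myl9 and Itga8) and 0 lower, with a list median of 0.35 against -0.09 over all genes. Of the 12 fibroblast markers Tcf21 was lower and the others lay within 2-fold.

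Osr1 stood at 444 CPM in Eln-rich and 52.3 CPM in Eln-poor cells, and Fbln5 at 1234 and 153 CPM. Lox (421 CPM in Eln-rich and 100 CPM in Eln-poor cells) and the microfibril gene Mfap4 (4521 and 2028 CPM) were the other elastic fibre genes higher, 3 of 10 in all with 0 lower. Wisp2 and Igfbp2, for secreted modulators of growth factor signals, stood at 187 and 94.3 CPM in Eln-rich and 22.8 and 9.62 CPM in Eln-poor cells. Among transcription factors Foxc2, known from vessel development, was higher (81.3 CPM in Eln-rich and 27.1 CPM in Eln-poor cells), and Tcf21 (141 and 289 CPM) and the heart factor Tbx20 (62.5 and 199 CPM) were lower. Ctgf, Cthrc1 and Ltbp1 of the TGF-beta and injury response list were higher, 3 of 8 with 0 lower.

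Eln-poor cells held more of Ndufa4l2, a mitochondrial protein gene listed here with the pericyte markers, at 58.9 CPM in Eln-rich and 307 CPM in Eln-poor cells. The muscle factor gene Msc (22.4 CPM in Eln-rich and 105 CPM in Eln-poor cells), the glutathione transferase gene Gstm1 (101 and 428 CPM) and the lipoprotein lipase gene Lpl (83.7 and 329 CPM) were lower as well. Of the neuronal genes among the lowest, 97.5% of the Eln-poor UMIs of Npy, 91.6% of Tubb3 and 91.3% of Uchl1 were in 1 cell. Dcn stood at 2250 CPM in Eln-rich and 3960 CPM in Eln-poor cells, so fibroblast matrix RNA was read on both sides of the split.

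**Figure D5:**
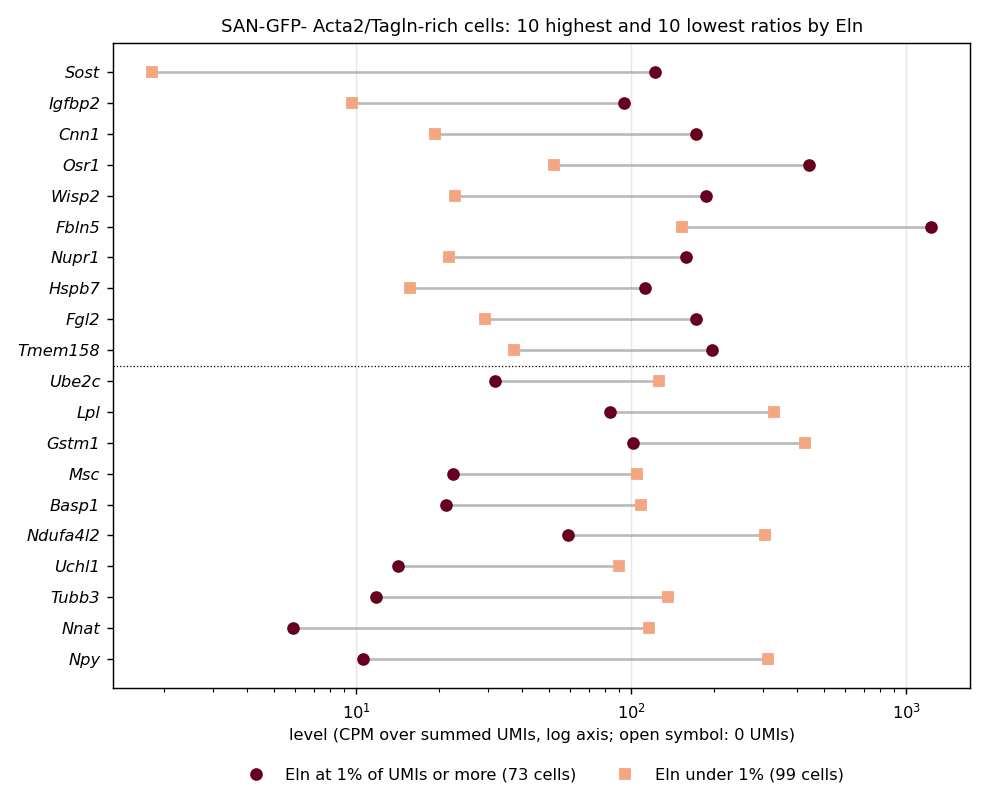
Levels in CPM on a log axis of the 10 genes with the highest and the 10 with the lowest ratio of Eln-rich (circles) to Eln-poor (squares) cells among the 172 SAN-GFP- Acta2/Tagln-rich cells. Sost lies at 121 CPM in Eln-rich and 1.80 CPM in Eln-poor cells, and Ndufa4l2 at 58.9 and 307 CPM.

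Against fibroblast-gene cells, the Acta2/Tagln-rich cells of both libraries held more of other filament genes. The rule sets these groups apart by their contractile UMIs, so the counts are a description. In SAN-GFP- 33 of 2561 genes were at least 2-fold higher (1.29%) and 54 lower (2.11%), and in RA 22 of 2649 were higher (0.831%) and 41 lower (1.55%). Of the contractile apparatus list, 7 of 13 genes were higher in SAN-GFP- and 3 of 14 in RA, with 0 lower in either. Myl9 stood at 961 CPM against 279 CPM in SAN-GFP-, and at 483 CPM against 168 CPM in RA. Tpm2 stood at 563 CPM against 194 CPM in SAN-GFP-, and at 561 CPM against 223 CPM in RA. Cnn2, a calponin found outside muscle too, stood at 304 CPM against 141 CPM in SAN-GFP- and 332 CPM against 157 CPM in RA. Csrp1, Ppp1r14a, Pdlim3 and Actn1 were higher in SAN-GFP-, with log2 ratios of 1.02 to 1.48.

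Serum response factor switches on contractile genes through a site called the CArG box, so the promoters of these genes were read from RefSeq (GRCm38.p6, 250 bases before the start to 50 after). Of the 25 genes of the list with Acta2, Tagln and Myh11, 22 had an entry, and 4 of those (18.2%) held a CArG box, a pattern that matches on both strands at once, against 1.81% of all 27025 genes with an entry. They were Myl9, Myl6, Cnn2 and Vcl. Of the contractile genes of the rule, Acta2 had an entry without a box, and Tagln and Myh11 had no entry. Tpm2 was higher than in fibroblast-gene cells in both libraries, and its promoter held no box. Nor did those of Csrp1, Ppp1r14a, Pdlim3 and Actn1, which were higher in SAN-GFP-. Myl6 and Vcl held a box and were not among the genes higher in either library, so box and level did not go together throughout. The promoters of Myl9 and Cnn2, which were higher in both libraries, are shown with the box in capitals, at chr2:156775214-156775513 on the plus strand for Myl9 and chr10:79988350-79988649 on the plus strand for Cnn2. A match describes these letters only.
Myl9: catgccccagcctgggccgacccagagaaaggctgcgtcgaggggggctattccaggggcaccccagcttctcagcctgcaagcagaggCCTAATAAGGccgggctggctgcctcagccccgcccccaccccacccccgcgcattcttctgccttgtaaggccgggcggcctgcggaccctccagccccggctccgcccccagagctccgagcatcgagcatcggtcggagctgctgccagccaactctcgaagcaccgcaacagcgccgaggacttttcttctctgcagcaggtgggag
Cnn2: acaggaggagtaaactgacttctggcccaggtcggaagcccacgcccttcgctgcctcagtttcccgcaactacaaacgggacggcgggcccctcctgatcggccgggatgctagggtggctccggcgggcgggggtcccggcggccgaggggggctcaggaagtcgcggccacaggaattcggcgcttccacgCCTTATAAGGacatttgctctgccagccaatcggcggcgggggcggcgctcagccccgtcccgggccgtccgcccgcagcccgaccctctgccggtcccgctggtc
The box began 161 bases before the start in Myl9 and 56 bases before it in Cnn2.

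Genes outside the filament list also differed from fibroblast-gene cells. In SAN-GFP- Heyl, a Notch target (123 CPM against 47.2 CPM), Tbx18, a factor of mural and sinus node progenitors (83.6 against 39.2 CPM), and Gucy1a3, a subunit of the nitric oxide receptor (153 against 71.1 CPM), were higher, as were Ace (87.6 against 23.9 CPM) and the chloride channel regulator Clca3a1 (164 against 49.4 CPM). Imprinted growth genes were lower, 8 of 10 in SAN-GFP- with a list median of -1.47. Dlk1 stood at 231 CPM against 1860 CPM and H19 at 265 against 1599 CPM. In RA 2 of 9 were lower, Dlk1 at 106 CPM against 392 CPM and Peg3 at 84.8 against 171 CPM. Penk, Gdf10, Tgfbi and Igfbp3, for secreted proteins, were lower in SAN-GFP- with log2 ratios of -3.67 to -3.18.

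In RA, some cell cycle genes were higher than in fibroblast-gene cells. Of 9 cell cycle genes 5 were higher and 0 lower, with a list median of 1.07 against 0.10 over all genes. Top2a stood at 84.8 CPM against 30.8 CPM and Hist1h2ap at 541 against 138 CPM, read in 21.0% and 22.6% of the Acta2/Tagln-rich cells. Top2a was just below 2-fold (0.997 on the log2 scale) when Rgs5 was held under 3 UMIs, and Rrm2 (0.91) without the deepest 5% of cells. The log2 ratio of Hist1h2ap was 1.97, and 1.26 and 1.30 under the same changes. In SAN-GFP- 0 of 6 passed in either direction (median 0.45). Tubb2b, a beta tubulin (93.2 CPM against 23.1 CPM), and Hes1, a Notch target (363 against 154 CPM), were higher in RA. Fmo2 (15.8 against 167 CPM), Slc38a5 (24.1 against 172 CPM) and Moxd1 (29.1 against 204 CPM) were the lowest.

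Against Rgs5-positive cells, from which the rule set them apart by Rgs5 and by the contractile minimum, the Acta2/Tagln-rich cells held less of several pericyte genes in both libraries. In SAN-GFP- 21 of 2586 genes were at least 2-fold higher (0.812%) and 29 lower (1.12%), and in RA 23 of 2695 were higher (0.853%) and 32 lower (1.19%). Kcnj8 stood at 25.9 CPM against 188 CPM in SAN-GFP- and 29.9 CPM against 175 CPM in RA. The collectin gene Colec11 stood at 26.3 CPM against 200.3 CPM in SAN-GFP- and 19.1 CPM against 166 CPM in RA. Fabp7, a fatty acid binding protein gene, stood at 12.3 CPM against 174 CPM in SAN-GFP- and 19.1 CPM against 360 CPM in RA. Of the Notch and PDGF list, the receptors Notch3 and Pdgfrb were lower in both libraries. Notch3 stood at 61.3 CPM against 136 CPM in SAN-GFP- and 53.2 CPM against 118 CPM in RA, and Pdgfrb at 109 against 225 CPM in SAN-GFP- and 77.4 against 257 CPM in RA. Mef2c, a muscle transcription factor, was lower as well (70.9 against 173 CPM in SAN-GFP- and 79.8 against 184 CPM in RA).

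Higher than in Rgs5-positive cells were Meox1, a mesodermal homeobox gene (147 CPM against 41.8 CPM in SAN-GFP- and 75.7 CPM against 25.6 CPM in RA), the dipeptidase gene Dpep1 (168 against 54.2 CPM in SAN-GFP- and 173 against 51.7 CPM in RA) and the proteoglycan gene Ogn (406 against 165 CPM in SAN-GFP- and 398 against 167 CPM in RA). In RA the elastic fibre genes Mfap5 (295 against 56.6 CPM), Fbln5 (135 against 42.9 CPM) and Lox (92.3 against 40.0 CPM) were also higher, 3 of 11 of that list, and 0 of 11 passed in SAN-GFP-. The secreted Wnt modulators Sfrp1 (179 against 65.4 CPM) and Sfrp2 (373 against 118 CPM) were higher in RA too. The contractile list was nearly level, with 0 higher and 2 of 17 lower in SAN-GFP- (Des and Mylk) and 0 of 14 either way in RA. Only the Acta2/Tagln-rich cells had to reach 20 contractile UMIs (medians 33 in SAN-GFP- and 34.5 in RA). Rgs5-positive cells had medians of 25.5 and 43, so the level list in part describes the choice.

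Against Actg2-positive cells of SAN-GFP-, from which the rule set them apart by Actg2, the Acta2/Tagln-rich cells held less of the contractile apparatus. Of 2603 genes, 59 were at least 2-fold higher (2.27%) and 80 lower (3.07%). Of 18 contractile genes 8 were lower and 0 higher, with a list median of -0.88. Mylk stood at 32.6 CPM against 281 CPM, Lmod1 at 26.3 against 126 CPM, Cnn1 at 70.9 against 256 CPM, Myl9 at 961 against 2650 CPM and the caldesmon gene Cald1 at 512 against 1219 CPM. The neurotensin gene Nts stood at 13.1 CPM against 242 CPM. The potassium channel gene Kcnk3 stood at 9.95 CPM against 112 CPM. Ace, for angiotensin-converting enzyme, went the other way, at 87.6 CPM against 21.3 CPM.

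Genes of mesoderm and fibroblasts were among those higher than in Actg2-positive cells. Meox1 stood at 147 CPM against 13.5 CPM, a 10.9-fold difference, Dpep1 by a log2 ratio of 2.74 (2.48 to 3.01), the surface protein gene Cd34 at 134 against 27.1 CPM and Aldh1a2, for a retinoic acid synthesis enzyme, at 89.6 against 21.7 CPM. Tcf21 (239 against 69.9 CPM) and Tbx20 (153 against 54.5 CPM) were the factors of the smooth muscle list that were higher, and Nr2f2, Foxc2 and Mef2c were lower. Receptor genes of vessel tone were few, with 5 of 24 measured. Of these the endothelin receptor Ednra (26.7 against 78.3 CPM) and the G-protein regulator Rgs2 (37.4 against 92.5 CPM) were lower.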

How the data were processed

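Per the submitters' processing notes, the reads were processed by the authors with Cell Ranger and mm9 (no version of Cell Ranger given). The 3 matrices deposited by the authors hold unnormalized UMI counts. SAN-GFP- held 3276 barcodes and 38204709 UMIs, RA 1450 barcodes and 19975326 UMIs. The cells and gene lists were chosen with earlier results of these data known. Counts were summed over the cells of a group in a library and scaled to CPM, and log2 ratios were formed with 0.5 UMIs added. A gene was measured if its mean over both groups was at least 50 CPM and its sum at least 10 UMIs, leaving out mitochondrial, haemoglobin and reporter features and the genes that define the groups. A ratio of 2-fold or more was counted. The genes named were the 10 with the highest and the 10 with the lowest ratio per comparison (with a UMI in at least 10% of cells of the higher group), with the members of the lists that passed 2-fold and markers. Some of them are not reported here. Shares of cells were also taken after thinning each cell to 2500 UMIs. Intervals (95%: Clopper-Pearson for shares, exact Poisson for CPM, exact conditional binomial for ratios) cover counting error only. With 1 library a group no test was made. Doublets were not called. The ratios were tested on simulated data. Python 3.11.15, numpy 2.4.6, scipy 1.17.1, pandas 2.3.3 and matplotlib 3.10.9 were used.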

Additional observations from a re-analysis of the deposited data

Results flagged for a closer look

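In the SAN-GFP+ library, whose cells were sorted for the reporter and enter no comparison, 10 barcodes of 3300 with at least 500 genes met the limits for Acta2/Tagln-rich cells. They had a median of 17508 UMIs and of 27.5 contractile UMIs (20 to 140), and 9 of the 10 had 0 Myh11 UMIs.

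Among the RA cells, 2 of 62 had a UMI of the reporter, 1 each, against 0 of 172 in SAN-GFP-. Among fibroblast-gene cells 6 had one in each of the libraries.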

How the results depend on the processing

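No paired analysis was possible because each group is 1 library and no result comes from a test. The comparison of cells with 3 or more Myh11 UMIs was not run as a ratio, since under 20 cells were there. With at least 30 contractile UMIs the cells numbered 104 in SAN-GFP-, and with at least 0.2% of UMIs 37 in RA. With at least 30 such UMIs 46 genes were lower in SAN-GFP- than in RA. With ratios set against the median gene 18 were lower. Without the deepest 5% of cells 13 genes were higher than in Rgs5-positive cells of SAN-GFP-. With no level filter the counts of genes higher and lower were 826 and 501 for SAN-GFP- against RA, 421 and 568 against Rgs5-positive cells in SAN-GFP-, 369 and 761 in RA, 617 and 814 against Actg2-positive cells, 546 and 1198 against fibroblast-gene cells in SAN-GFP-, 504 and 667 in RA, and 630 and 732 between Eln-rich and Eln-poor cells. The neuronal genes carried by 1 cell turned round. With at least 30 contractile UMIs the log2 ratio of Npy was -0.053 against Rgs5-positive, -2.21 against Actg2-positive and -3.61 against fibroblast-gene cells, and without the deepest 5% it was -0.016 against Rgs5-positive and -0.40 against Actg2-positive cells. Between Eln-rich and Eln-poor cells, ratios were 0.53 for Npy, 0.46 for Tubb3 and 0.73 for Uchl1 with at least 30 such UMIs, and 0.72 for Npy and 0.75 for Uchl1 without the deepest 5%. The causes were not tested. Of 128 counts 109 stayed within 1.5 times, and of 1180 ratios of named genes 1067 stayed within their counting interval, 103 moved and 10 changed sign. The split by Eln and some alternatives were chosen after seeing the data.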
